A study of Mus musculus with 8 samples.

Results

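A miRNA hairpin is cut by Dicer into a duplex, and as a rule 1 strand of it is kept by an Argonaute protein to repress messenger RNAs while the other, the star strand, is degraded. Older miRNA names mark that second strand with a star, and current names give the arm of the hairpin instead (5p or 3p). Star strands are known to be loaded as well in some hairpins, so the ratio of the 2 strands is used as a readout of which strand a tissue keeps. The star strands described here are the 106 of 567 mouse miRNAs on the array whose name ends in a star, without miR-199b*, miR-214*, miR-31*, miR-29c*, miR-99b*, miR-30a*, miR-30e* and miR-140*, which were not examined. For 95 of the 106 the array also measures the miRNA of the same name without the star, called the partner here, and for 11 it has no row of that name, mostly because the star is named for 1 copy of a duplicated hairpin.

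The arrays hold liver RNA of male C57BL/6J mice, aged 8 weeks at the start, in a model of chemically induced liver fibrosis. Carbon tetrachloride (CCL4), a hepatotoxin, was given in olive oil into the peritoneum 2 times a week for 4 weeks and weekly after that, and the control mice received the oil alone. Livers were taken at 4 weeks (1 CCL4 and 1 olive oil array), 6 weeks (2 and 1) and 8 weeks (2 and 1), which makes 5 CCL4 arrays against 3 olive oil arrays. Whether an array holds 1 mouse or a pool is not given in the sources used here, so p-values measure the spread between these arrays, which may be technical in part.

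The scanner software called 117 to 158 mouse miRNAs detected per array, and the CCL4 array of 4 weeks stood apart with the highest number and with signals called detected down to 0.139, against 5.59 to 8.16 on the other 7. Signals are intensities summed over the probes of a miRNA after background subtraction, and a call of detection followed from at least 1 probe over 3 times its own error. The hepatocyte marker miR-122 was the brightest mouse miRNA on all 8 arrays (18500 to 35100), all 3 hepatocyte markers examined were detected on every array, and none of the 4 pancreatic markers was detected on any.

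The mature sequences of the star strands that carried signal are given first, since the results turn on which strand of which hairpin was seen. They are RefSeq sequences of the GRCm38.p6 build, matched for 88 of the 106 star strands and for 12 of the 13 that were detected, written 5′ to 3′ with the seed (bases 2 to 8) in capitals.
miR-22* (5p arm): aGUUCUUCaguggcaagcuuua
miR-22 (3p arm): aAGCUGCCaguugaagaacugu
miR-30c-2* (3p arm): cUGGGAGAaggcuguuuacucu
miR-30c-1* (3p arm): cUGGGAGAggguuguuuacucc
miR-30c (5p arm of both copies): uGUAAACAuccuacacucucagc
let-7b* (3p arm): cUAUACAAccuacugccuuccc
let-7f* (3p arm): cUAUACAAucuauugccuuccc
miR-877* (3p arm): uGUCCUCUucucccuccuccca
miR-17* (3p arm): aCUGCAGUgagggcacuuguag
miR-135a* (3p arm): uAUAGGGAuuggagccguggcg
miR-21* (3p arm): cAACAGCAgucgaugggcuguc

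The hairpin of miR-22 lies at chr11:75463716-75463810 on the plus strand, within the span of its host gene Mir22hg, and shows how the strands face each other across the loop. The star strand is in capitals at the 5′ side and the partner follows it on the 3′ side.
Mir22: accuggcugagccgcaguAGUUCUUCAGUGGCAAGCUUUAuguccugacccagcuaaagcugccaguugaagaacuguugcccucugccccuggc

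The strands of a hairpin have different seeds, so each would pair with different messenger RNAs. Among the detected star strands, miR-30c-1* and miR-30c-2* share the seed UGGGAGA and differ by G9A, U12C and C22U (miR-30c-1* base, position from the 5′ end, miR-30c-2* base). Likewise let-7b* and let-7f* share UAUACAA and differ by C9U and C13U, and the seed of miR-17*, CUGCAGU, is also that of miR-20b*, which was not detected. Of the 88 matched star strands 15 began with U, 28 with A, 32 with C and 13 with G, whereas 53 of the strands opposite them began with U, 21 with A and 7 each with C and G. The 12 detected star strands with a sequence lay on the 3p arm in 10 cases, against 44 of the 76 that were detected on no array.

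Most star strands were not detected in these livers. Of the 106, 13 were called detected on at least 1 array (12.3%), 4 on at least 3 arrays (3.77%) and 3 on all 8 (2.83%), and 93 on none. Of the 95 partners, 47 were detected on at least 1 array (49.5%), 38 on at least 3 (40.0%) and 36 on all 8 (37.9%). The remaining 358 mouse miRNAs of the array lay between, with 31.3%, 23.7% and 19.6%. CCL4 arrays had 10 star strands detected at 4 weeks, 3 and 5 at 6 weeks and 6 and 3 at 8 weeks. Controls had 3, 3 and 4 in the order of the weeks. Over all 567 mouse miRNAs, CCL4 arrays had 158, 121, 136, 145 and 123 detected and controls 118, 117 and 126, in the same order. The spread of these counts between arrays is thus not particular to star strands. Without the CCL4 array of 4 weeks the number detected on any array fell from 13 to 8. The 93 star strands never detected had a median signal between -3.34 and -0.766 per array, which is background after subtraction, and the highest of them reached 11.8 (miR-483* on the second CCL4 array of 8 weeks).

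Taken hairpin by hairpin, the 95 pairs gave an asymmetric picture, in the direction that the star names already imply. In 45 pairs neither strand was detected. Of the 50 others, the partner alone was detected in 40, both strands in 7 (in 6 of them on the same array) and the star strand alone in 3, which were miR-17*, miR-135a* and miR-674*. Of the 36 partners present on all 8 arrays, 31 had a star strand detected on none. Star strands called detected on an array took 0.0610% to 0.187% of its mouse miRNA signal (0.150% to 0.266% with the signal above 0 of those not detected), and partners took 28.9% to 38.5%.

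The 10 brightest partners show how far a star strand can lie below its partner. In order of level these were miR-21, miR-22, let-7f, miR-29a, let-7g, let-7b, miR-148a, miR-29b, miR-15a and let-7d, among them the let-7 family, known as regulators of developmental timing and proliferation, and miR-29, known to repress collagen messenger RNAs. The star strands of 6 of them were detected on no array, which leaves only a bound, taken as the partner over the higher of the lowest detected signal and the star strand's own signal on each array, in means of log2 values over arrays. The CCL4 array of 4 weeks, where the lowest detected signal was far lower, raised these bounds, so they are given over the other 7 arrays first. Signal of miR-29a was at least 240.5-fold that of miR-29a* (324-fold over all 8 arrays), of let-7g at least 192-fold that of let-7g* (302-fold) and of miR-148a at least 157-fold that of miR-148a* (248-fold). The same bounds were 142-fold for miR-29b (158-fold), 138-fold for miR-15a (224-fold) and 103-fold for let-7d (108-fold). On single arrays the lowest bounds were 187-fold for miR-29a, 151-fold for let-7g, 128-fold for miR-148a, 107-fold for miR-15a, 104-fold for miR-29b and 80.8-fold for let-7d. Probes of 2 strands differ in affinity, so all strand ratios here are ratios of signal and not of molecules.

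miR-22* was the brightest of the 106 star strands described here on 7 of the 8 arrays and ranked no lower than 103 among the 567 mouse miRNAs. In CCL4 livers it read 30.3 at 4 weeks, 27.8 and 37.5 at 6 weeks and 55.1 and 46.0 at 8 weeks, and in livers given oil alone 30.4, 31.2 and 42.3 at the same weeks. Without scaling between arrays, both treatments were highest at 8 weeks and overlapped. With each array scaled as described below, miR-22* with olive oil was no higher at 8 weeks (6.52) than at 6 weeks (6.62). Scaled CCL4 levels of miR-22* stayed highest at 8 weeks, at 5.01 and 5.30 against 4.26 and 4.96 at 6 weeks. Both of its probes carried the signal, with a mean of 14.0 and 25.3 in CCL4 livers and 12.2 and 22.4 in controls. miR-22, which is abundant in liver and heart, gave 2903 to 5571, so that its star strand stayed near 1% of it on each array.

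miR-30c-2* gave 9.26, 9.87, 12.0, 19.9 and 18.2 with CCL4, in the same order, and 8.09, 11.4 and 15.6 with olive oil. Without scaling between arrays, it also was highest at 8 weeks in both treatments. Scaled, miR-30c-2* with olive oil was no higher at 8 weeks (2.41) than at 6 weeks (2.42). Scaled CCL4 levels of miR-30c-2* stayed highest at 8 weeks, at 1.81 and 2.10 against 1.51 and 1.59 at 6 weeks. Nearly all of its signal came from 1 of its 2 probes, the one that pairs with 19 bases (mean 12.5 with CCL4 and 10.48 with olive oil), whereas the probe of 18 bases averaged 1.37 and 1.21. The related miR-30c-1* had a total signal between -0.915 and 2.01 and was called detected only on the CCL4 array of 4 weeks, where 1 of its 4 probes, also of 19 bases, read 3.81 and the other 3 read below 0. Both come from hairpins of the miR-30 family, known in liver and kidney and as repressors of connective tissue growth factor, and Mir30c-1 lies within the span of Nfyc.

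miR-378* gave 10.6, 13.9, 19.9, 20.8 and 22.4 with CCL4, and 13.01, 15.1 and 17.9 with olive oil. The CCL4 array of 4 weeks was the lowest of all 8, and the others overlapped. Its partner miR-378 was the dimmest of the partners present on all arrays with a detected star strand, at 63.9 to 125.

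miR-877* was called detected on 3 arrays, all of CCL4 mice, but its signal varied little. It read 10.6, 10.8, 10.6, 13.8 and 11.9 with CCL4, where the first array of 6 weeks and the second array of 8 weeks were not called detected, against 8.58, 9.18 and 9.19 with oil alone. Without scaling, every CCL4 array thus lay above every olive oil array. Its hairpin is a known mirtron, an intron that serves as the precursor itself, within the span of Abcf1 at chr17:35960730-35960814 on the minus strand. The partner miR-877 read 39.5 on the CCL4 array of 4 weeks, where alone it was detected, and between -2.76 and 3.54 on the other 7. The star strand had the higher signal on those 7 arrays, but it was called detected on only 2 of them. On the rest neither strand was called detected, so their order there does not show which strand was kept. miR-483*, detected on no array, likewise read above its partner on 7 arrays.

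Among the other star strands, 8 were called detected on 1 array each and miR-17* on 2. miR-17*, from the cluster of miR-17 to miR-92a known to drive proliferation, read 17.5, 5.80, 6.77, 10.9 and 8.71 in CCL4 livers and 4.15, 3.71 and 6.23 in controls. It was called detected at 4 weeks and on the first CCL4 array of 8 weeks, and it exceeded miR-17, which was detected on no array, on all 8. On the arrays other than these 2, neither strand was called detected, so their order there does not show which strand was kept. Of the 8 detected on 1 array alone, 5 were on the CCL4 array of 4 weeks: miR-135a*, miR-21*, miR-24-1*, miR-30c-1* and miR-674*. miR-135a* read 64.8 there, with a software error of 4.48, and between 0.442 and 5.12 on the other 7 arrays. Its 4 probes pair with only 10 to 13 bases, and those of 12 and 13 bases carried 24.1 and 32.2 of that signal. miR-21* read 8.65 on that array, between 2.18 and 2.63 on the other CCL4 arrays and below 0 on all 3 olive oil arrays, while miR-21, which rises in many injured and fibrotic tissues, read 7071 to 16860. The other 3 were dim on that array, with 7.17 for miR-24-1*, 1.16 for miR-30c-1* and 5.11 for miR-674*, and all 3 were brighter on the first CCL4 array of 8 weeks without a call. The remaining 3 were let-7b* on the olive oil array of 8 weeks (11.1), let-7f* on the first CCL4 array of 8 weeks (11.3) and miR-154*, of an imprinted miRNA cluster on chromosome 12, on the second CCL4 array of 6 weeks (13.2). let-7b* and let-7f* gave nearly as much on arrays without a call, with 7.73 to 11.3 and 6.00 to 11.3 over all 8. miR-154* spread more widely, from 0.232 at 4 weeks to 14.7 at 8 weeks in CCL4 mice and from -0.322 to 6.42 in controls. The part of the array's own lower limit of detection in the 5 calls at 4 weeks was not tested.

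**Figure D1:**
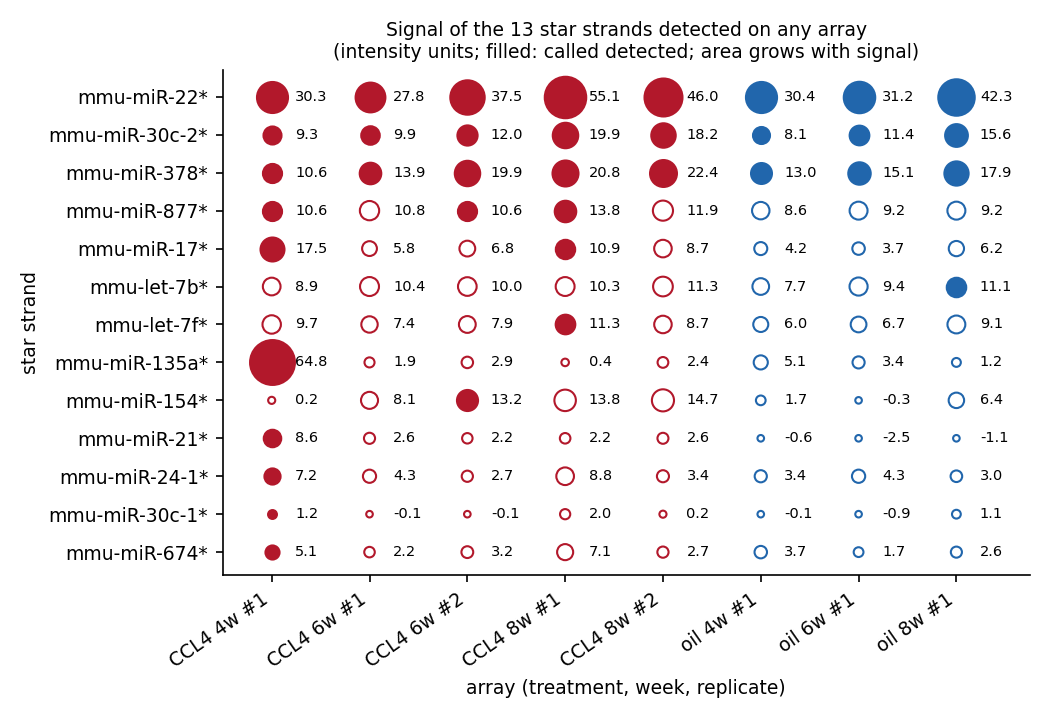
Signal (intensity units, printed beside each circle) of the 13 star strands detected on any array (y axis) on each of the 8 arrays (x axis: treatment, week and replicate), with red for CCL4 and blue for olive oil, filled where called detected, and an area that grows with the signal. miR-22*, miR-30c-2* and miR-378* are filled on all 8 arrays, and 5 star strands are filled only on the CCL4 array of 4 weeks, where miR-135a* reads 64.8.

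The ratio of the strands within an array does not depend on how arrays are scaled to each other. miR-22* was 0.941%, 0.957%, 0.976%, 0.990% and 0.988% of miR-22 with CCL4 (mean 0.970% ± 0.0209, SD, n = 5) and 0.885%, 0.802% and 0.989% with olive oil (0.892% ± 0.0935, n = 3). The CCL4 arrays stayed within a narrow band, and the olive oil array of 8 weeks fell inside it. miR-378* was 15.4%, 17.2%, 20.7%, 16.7% and 19.0% of miR-378 with CCL4 (17.8% ± 2.09, n = 5) and 20.4%, 20.2% and 22.7% with olive oil (21.1% ± 1.39, n = 3). All but 1 CCL4 array lay below the olive oil arrays. miR-30c-2* was set against miR-30c, the row that both copies of the hairpin share, a pairing chosen after its values were seen. It was 2.41%, 2.88%, 2.73%, 3.14% and 3.25% of miR-30c with CCL4 (2.88% ± 0.334, n = 5) and 2.05%, 2.78% and 3.47% with olive oil (2.77% ± 0.710, n = 3). In both treatments its ratio was lowest at 4 weeks and highest at 8 weeks, and no array of 1 week overlapped with those of another. This difference between weeks was not tested. The miR-30c-2* signals of 8.09 to 19.9 behind it carried software errors of 2.77 to 4.59. At 4 weeks the error was 3.56 on a signal of 8.09 with olive oil and 2.77 on 9.26 with CCL4.

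Of the other 10 detected star strands, 6 had 1 array with both strands detected, and miR-17*, miR-135a*, miR-154* and miR-674* had none. miR-877* was 26.8% of miR-877 on the CCL4 array of 4 weeks, the highest among ratios with both strands detected here. let-7b* was 0.758% of let-7b, let-7f* 0.326% of let-7f and miR-21* 0.0513% of miR-21, a signal 1950-fold lower than that of its partner. Against the shared rows miR-24 and miR-30c, miR-24-1* was 1.27% and miR-30c-1* 0.303%.

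**Figure D2:**
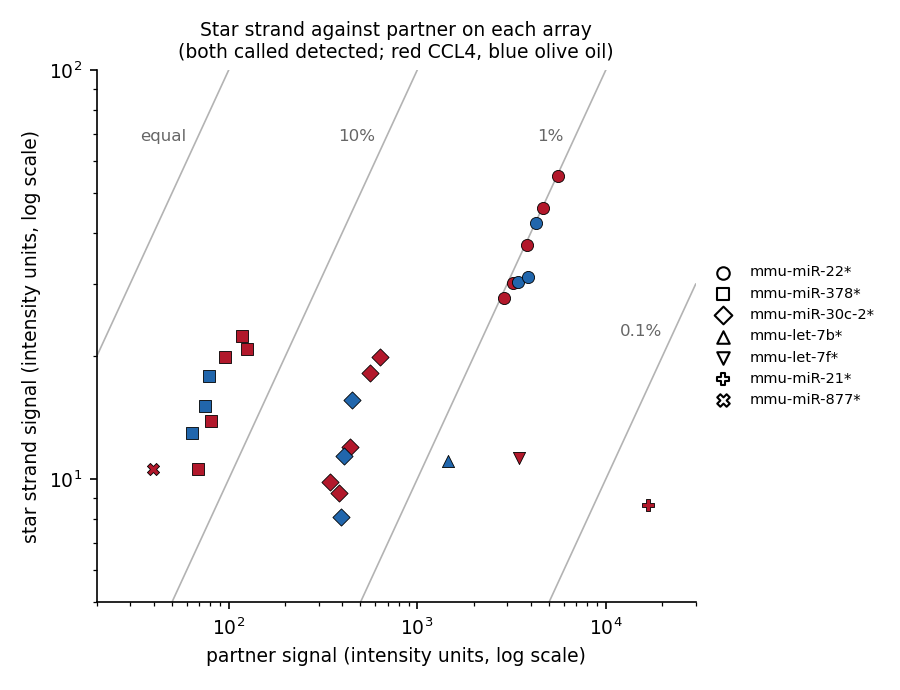
Star strand signal (y axis, intensity units, log scale) against the signal of the partner (x axis, same units, log scale) on each array where both were called detected, with red for CCL4, blue for olive oil, a marker for each star strand and grey lines of equal ratio. miR-22* follows the line of 1% on all 8 arrays, miR-378* lies between 15.4% and 22.7%, and miR-21* lies below 0.1%.

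Whether a strand ratio moved with CCL4 was tested with limma on the log2 ratio, with week in the model, over the 11 hairpin pairs of the array that had both strands on at least 3 arrays. Of the star strands described here only those of miR-22 and miR-378 were among these 11. By limma 0 of these 2 ratios passed the adjusted threshold of 0.05 and 1 had an unadjusted p under 0.05, where 9.09% of the 11 pairs passed, a single pair of a star strand not examined here. For miR-22*/miR-22 the difference of CCL4 from olive oil was 0.12 on the log2 scale (standard error 0.0854, 95% interval -0.07 to 0.31, limma adjusted p = 0.368). Exact permutation without a week term gave p = 0.0893 for it. For miR-378*/miR-378 it was -0.27 (standard error 0.105, 95% interval -0.51 to -0.04, limma adjusted p = 0.150), and exact permutation of the 5 and 3 arrays (56 splits, two-sided) gave p = 0.0714. The ratio of miR-378 was called without the second CCL4 array of 6 weeks (-0.33, limma adjusted p = 0.0462), and with replicate number as a block (-0.36, limma adjusted p = 0.0424). The array left out there is the 1 CCL4 array that did not lie below the olive oil arrays, so its removal favours a call. Since only CCL4 groups have a replicate 2, the block leaves the treatment difference to the replicate 1 arrays. For miR-30c-2*/miR-30c, fitted in addition, the difference was 0.02 (standard error 0.0903, 95% interval -0.18 to 0.22, limma adjusted p = 0.879).

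Levels between arrays need a scale, and for these star strands the scale set the direction. With each array divided by the 75th percentile of its 567 mouse miRNAs, a percentile the study's methods name, 3 of the 4 star strands tested were lower in CCL4 livers over all weeks and none was higher, where 35.3% of the 133 miRNAs tested were lower and 13.5% higher. miR-22* differed by -0.56 on the log2 scale (standard error 0.157, limma adjusted p = 0.0209), from a scaled log2 level of 2.67 ± 0.0838 (SD, n = 3) in olive oil livers to 2.16 ± 0.297 (n = 5) in CCL4 livers, and exact permutation without a week term gave p = 0.0536. Scaled, each CCL4 array lay below each olive oil array for miR-22*, as for 43.6% of the miRNAs tested (9.02% had each CCL4 array above). miR-30c-2* differed by -0.54 (standard error 0.151, limma adjusted p = 0.0209) and miR-378* by -0.60 (standard error 0.196, limma adjusted p = 0.0269), both with overlapping arrays and exact permutation p of 0.179 and 0.143. miR-877*, which entered only through CCL4 arrays, differed by -0.33 (standard error 0.154, limma adjusted p = 0.0922). The median over the 4 star strands was -0.55, beside -0.35 over the 38 partners tested, of which 17 were lower and 1 higher, and -0.32 over all 133. The partner miR-22 was also lower (-0.68, standard error 0.163, limma adjusted p = 0.0135), and miR-378 differed by -0.33 (standard error 0.174, limma adjusted p = 0.124).

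Without scaling all 4 differences turned positive, to 0.11 for miR-22*, 0.13 for miR-30c-2*, 0.07 for miR-378* and 0.34 for miR-877*. None passed limma's adjusted threshold and none had an unadjusted p under 0.05, where 25.6% of the 133 were higher and 0% lower. The unscaled arrays of miR-877* did not overlap, as those of 14.3% of the miRNAs tested that were all above, but it entered the test only through its 3 detected CCL4 arrays, so this is a description and not a test. As for the 75th percentile itself, it was 9.498, 6.53, 7.55, 11.0 and 8.68 with CCL4 and 5.11, 4.71 and 6.48 with olive oil. On each olive oil array it lay below the lowest signal called detected there (7.12, 6.26 and 7.80), and on each CCL4 array above it. With the 75th percentile of only those miRNAs that every array detected, the differences were -0.36, -0.34, -0.40 and -0.13 for the 4 star strands in the same order, and limma called none. Over the scalings, the median of all tested miRNAs ran from -0.32 to 0.35. Relative to the median in the main scaling, miR-22* was -0.24, miR-30c-2* -0.21, miR-378* -0.28 and miR-877* -0.01. Without scaling these 4 values are the same by construction, since a divisor per array moves all levels above the floor alike.

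Scaled calls also rested on single arrays: without the CCL4 array of 4 weeks, the olive oil array of 4 weeks or the olive oil array of 6 weeks, limma called none of the 4 star strands over all weeks. Over all 8 fits with 1 array left out, the difference stayed between -0.69 and -0.43 for miR-22*, between -0.67 and -0.47 for miR-30c-2* and between -0.76 and -0.38 for miR-378*. Between the 2 scalings the strand ratio stayed as it was, since it needs none.

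**Figure D3:**
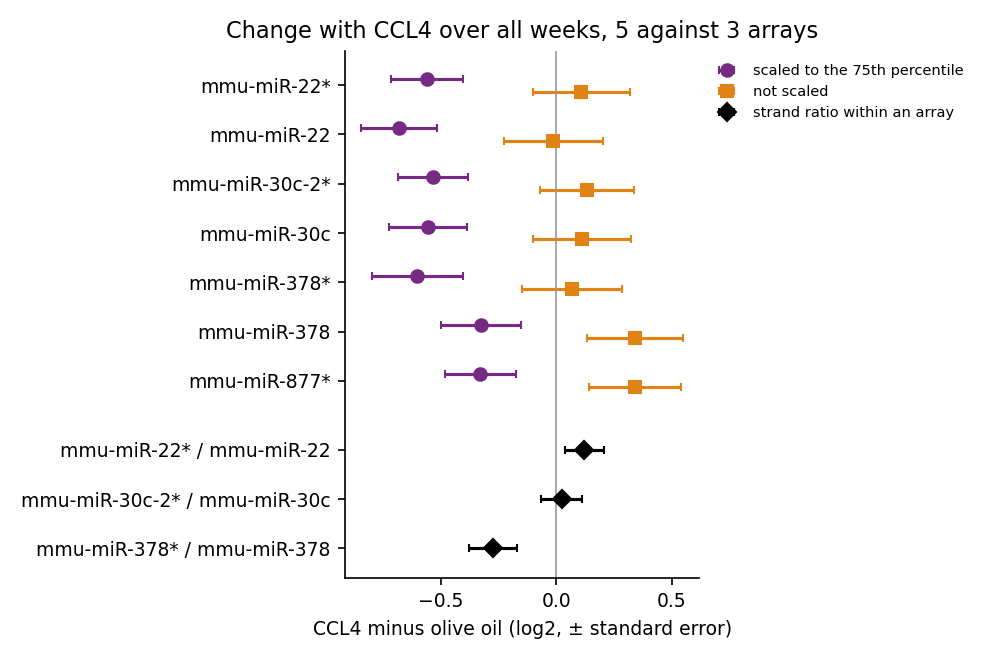
CCL4 minus olive oil over all weeks (x axis, log2, bars are the standard error of the limma fit, 5 against 3 arrays) for the 4 tested star strands and the miRNAs they pair with, scaled to the 75th percentile (circles) or not scaled (squares), and for 3 strand ratios (diamonds). Scaled differences of the star strands lie between -0.60 and -0.33, unscaled ones between 0.07 and 0.34, and the ratio of miR-378 is the one diamond below 0.

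At 4 weeks 1 CCL4 array stood against 1 olive oil array, with no replicate of either. The fit by week took the spread from the pairs at 6 and 8 weeks and gave every miRNA the same standard error at a week (0.328 at 4 weeks and 0.284 at 6 and 8 weeks), so its p-values do not use a miRNA's own spread and assume that the arrays of 4 weeks vary like the pairs. On that assumption 2 of the 4 star strands passed as lower at 4 weeks, where 33.1% of the miRNAs tested did. They were miR-22* (-0.90, limma adjusted p = 0.0179) and miR-378* (-1.19, limma adjusted p = 0.00219), and neither was called without scaling. At 6 weeks limma called 0 of the 4, with 1 at an unadjusted p under 0.05, where 3.01% of the miRNAs tested were lower and 6.02% higher. At 8 weeks it called 0, and 0 at an unadjusted p under 0.05, where 0.752% were lower. The scaled differences of miR-378* were -1.19, -0.44 and -0.32 at 4, 6 and 8 weeks, and those of miR-22* -0.90, -0.53 and -0.34. The interaction of treatment and week was called for none of the 4 by limma's F test, adjusted or unadjusted, where 6.02% of the miRNAs tested were (miR-378* limma adjusted p = 0.540).

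Markers of the liver's cell types were summed beside these results. Without scaling, the summed signal of 5 mesenchymal and stellate cell markers, of which 4 were detected, was 164 to 460 on CCL4 arrays and 95.3 to 170 on olive oil arrays, and that of 6 leukocyte markers, 5 detected, was 329 to 1375 against 340 to 596, with overlapping arrays in both lists. The unscaled sum of the 3 hepatocyte markers was 21270 to 40740 on CCL4 arrays and 27680 to 34100 on olive oil arrays, which overlap, whereas scaled it was 2328 to 4120 against 5260 to 5882, without overlap. Scaled, 43.6% of the miRNAs tested also had each CCL4 array below each olive oil array. Most of this hepatocyte sum was miR-122, which read 18500 to 35100 unscaled over all arrays. In whole liver RNA, fewer cells of a type and less RNA per cell cannot be told apart, and the part of cell composition in the star strand results was not tested.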

How the data were processed

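The liver RNA of the 8 samples was hybridised to Agilent mouse miRNA arrays in 1 colour. Per the file headers, the authors extracted the intensity values with Feature Extraction 10.5.1.1, in which each miRNA has the sum of its background-subtracted probes. The deposited processed table gives these signals on the log2 scale with a floor of 1 (largest difference 1.107e-06, 4536 values) and served as an alternative. Here the signals were divided by each array's 75th percentile of mouse miRNAs, floored at 0.01 and put on the log2 scale. In the methods the floor comes first, an order run as an alternative, and it is not said whether the percentile was taken per array. miRNAs detected on at least 3 arrays (133) were fitted with limma 3.58.1 (R 4.3.3, with the data.table package, version 1.17.8), with week as a factor (4 residual degrees of freedom) or a mean for each of the 6 groups (2 residual degrees of freedom), and p-values were adjusted by Benjamini-Hochberg over all 133 with a threshold of 0.05. Strand ratios were fitted the same way over 11 hairpin pairs. Single values were tested by exact permutation over 56 splits. Tables were joined with Python 3.11.15, pandas 2.3.3 and numpy 2.4.6.

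Star strands detected on at least 1 array were named, and star strands never detected were named only where their partner was among the 10 brightest, besides those chosen after their values were seen (miR-20b* and miR-483*, and those in the closing section). The members and lists were chosen with earlier results of these data known. Star names were matched to RefSeq sequences by the order and distance of the strands or by the copy number in the name, and miR-378* was not matched. Saturated spots among mouse miRNAs numbered 0. The small number of arrays limits the precision. All 6 groups have a replicate 1, and only the CCL4 groups of 6 and 8 weeks have a replicate 2. The differences between replicates 2 and 1 at these weeks correlated at r = 0.0507 over the 133 miRNAs, with 2 numbers, so they were not treated as pairs. Alternatives were other scalings, floors, background corrections, filters, probes, tests and each array left out.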

Additional observations from a re-analysis of the deposited data

Results flagged for a closer look

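Among the 5 CCL4 arrays, the array of 4 weeks stood far from the other 4 for miR-135a*, at 64.8 against at most 2.9, and for miR-21*, at 8.65 against at most 2.63. Both star strands are described because that array alone detected them, so its distance is a description and not an independent test. Each gap exceeded the 95% limit of Dixon's test for a single distant value, and 16 values were examined. That test's rate of about 5% by chance does not hold for star strands picked through the array in question. The 5 arrays come from 3 different weeks, and the array of 4 weeks has no replicate, so week and array cannot be told apart.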

How the results depend on the processing

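The main counts were 3 of 4 star strands lower over all weeks, 2 lower at 4 weeks and none at 6 or 8 weeks. No interaction and no changed strand ratio was called. In these main fits 35.3% of the 133 miRNAs tested were lower over all weeks and 33.1% at 4 weeks. Shares of all tested miRNAs under most of the other settings are not given here. The counts below thus describe the dependence on settings and show nothing particular to star strands. Over all weeks the count was 0 with the percentile over miRNAs detected on all arrays, without scaling, with the processed table, without the filter on detection, without the week term, and with the methods' t-test adjusted by Benjamini-Hochberg or Bonferroni. It was 1 with normexp and with that t-test unadjusted, and 2 with quantile normalization, where miR-22* lost its call (limma adjusted p = 0.0702). With the brightest probe alone it was 4, which added miR-877* (limma adjusted p = 0.0372). miR-877* entered only through CCL4 arrays, so that call is a description and not a test. Leaving out 1 array gave 0 to 3 over all weeks, 1 to 4 at 4 weeks, 0 to 3 at 6 weeks, 0 to 1 for the interaction and 0 to 1 for the ratio. At 4 weeks the count was 0 without scaling and with the processed table, and 1 with normexp and without the filter. At 6 weeks it was 2 with the median scaling and 3 with the brightest probe alone, and at 8 weeks 1 with the median scaling and 2 without the filter. Without scaling, with or without the processed table, the differences over all weeks turned to 0.11 (miR-22*), 0.13 (miR-30c-2*), 0.067 (miR-378*) and 0.34 (miR-877*), and those of the permutation test, which has no week term, to 0.15, 0.22, 0.15 and 0.36. A floor at the lowest detected signal left 3 calls when set after scaling. Set before it, a choice added after seeing the data, it raised the percentile of the olive oil arrays, left 0 calls over all weeks and 0 at 4 weeks, and turned miR-877* to 0.048 (0.081 in the permutation test). Quantile normalization called 1 interaction, that of miR-378*.

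Without the filter, 2 of the 106 star strands were higher over all weeks (miR-21* and miR-24-2*), 1 was higher at 4 weeks (miR-17*), 4 had an interaction and 3 ratios were called, mostly of star strands at or near the floor. The share of all 567 miRNAs called in these fits is not given here, so these counts show nothing particular to star strands. The ratio of miR-378 was called (1 pair) with the filter of detection on all 8 arrays (limma adjusted p = 0.0251), with the replicate block (-0.36, limma adjusted p = 0.0424) and with the unadjusted t-test. The block takes the treatment difference from the replicate 1 arrays alone, since olive oil has no replicate 2. With the replicate block, the counts over all weeks stayed at 3 lower and 0 higher. Detection gave 13 star strands on at least 1 array, 8 without the CCL4 array of 4 weeks, 4 on at least 3 arrays, and 1 on at least 3 arrays under the stricter rule on spots well above background. The log2 ratio of miR-22* to miR-22 was -6.74, and -7.11 with the brightest probe alone. Where not stated otherwise, the cause of a change with the setting was not tested. Apart from miR-22*, and miR-135a* on the CCL4 array of 4 weeks, signals of the 106 star strands did not exceed 22.4, against lowest detected signals of 5.59 to 8.16 on the arrays other than that one.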
